A study of Mus musculus with 6 samples.

Results

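Transcripts of 10 genes of the brain endothelium and its blood-brain barrier were followed in the whole brain of 6 mouse embryos, as 10 of the 53801 genes of a table of RNA-seq read counts. The members were taken by gene symbol: Pecam1, Cdh5, Kdr, Flt1 and Tek, which endothelial cells of most organs express, and Cldn5, Slc2a1, Mfsd2a, Abcb1a and Slco1c1, which serve the barrier. All 10 were present and all 10 passed the count minimum, at least 10 counts in all. All embryos were C57BL/6 mice at stage E16.5. Bahd1-KO embryos (genotype Bahd1-/-, n = 3) carried a null allele of Bahd1 on both chromosomes in every cell, and Bahd1-WT embryos (n = 3) were wild type, with no further allele or agent in either group. According to the study's methods, embryos of both genotypes came from matings of heterozygous parents. BAHD1 is a protein of chromatin-repressing complexes, and the comparison asked whether its loss altered expression in the brain before birth.

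Capillaries of the brain differ from those of most organs in that their endothelial cells seal the gaps between cells with tight junctions, keep transport through vesicles low and carry chosen solutes with dedicated transporters. These features begin to form while vessels grow into the embryonic neural tube, under VEGF, which acts through the receptors encoded by Kdr and Flt1, and under WNT ligands from neural cells, which act through beta-catenin and TCF/LEF factors. Angiopoietins act on TEK in the maturing vessel wall, and pericytes join the capillary at the same time. Whole brain was measured here, so that fewer endothelial cells and less RNA per endothelial cell cannot be told apart.

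Promoters are shown for the 4 barrier genes on which the results below turn: Cldn5, Slc2a1 and Mfsd2a, which were lower in replicate 1 than in replicate 2 of both genotypes, and Slco1c1, which was higher. Each window runs 5′ to 3′ on the gene's own strand from 250 bases before to 50 bases after the transcription start of RefSeq, assembly GRCm38.p6. The windows are chr16:18776597-18776896, plus strand, for Cldn5, chr4:119108495-119108794, plus strand, for Slc2a1, chr4:122961139-122961438, minus strand, for Mfsd2a, and chr6:141524104-141524403, plus strand, for Slco1c1. Capitals mark a match to the core of ETS factors (AGGAAG or CGGAAG) or of TCF/LEF factors (CTTTGA) on either strand.
Cldn5: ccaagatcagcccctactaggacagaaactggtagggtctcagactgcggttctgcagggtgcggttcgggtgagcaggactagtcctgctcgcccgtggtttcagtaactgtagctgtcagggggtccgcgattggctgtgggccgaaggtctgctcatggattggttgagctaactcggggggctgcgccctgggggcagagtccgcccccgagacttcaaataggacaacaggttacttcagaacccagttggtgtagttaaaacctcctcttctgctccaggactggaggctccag
Slc2a1: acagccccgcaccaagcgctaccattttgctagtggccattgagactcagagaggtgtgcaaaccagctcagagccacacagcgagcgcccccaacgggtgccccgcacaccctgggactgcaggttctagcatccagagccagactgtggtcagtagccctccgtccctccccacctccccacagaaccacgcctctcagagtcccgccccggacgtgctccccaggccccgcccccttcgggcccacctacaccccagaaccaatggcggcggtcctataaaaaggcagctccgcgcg
Mfsd2a: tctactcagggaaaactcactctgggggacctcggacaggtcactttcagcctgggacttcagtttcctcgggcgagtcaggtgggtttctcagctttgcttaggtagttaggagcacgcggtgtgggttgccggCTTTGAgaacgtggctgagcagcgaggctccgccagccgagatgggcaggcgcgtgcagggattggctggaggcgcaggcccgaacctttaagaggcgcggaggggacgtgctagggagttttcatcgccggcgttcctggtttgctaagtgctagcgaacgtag
Slco1c1: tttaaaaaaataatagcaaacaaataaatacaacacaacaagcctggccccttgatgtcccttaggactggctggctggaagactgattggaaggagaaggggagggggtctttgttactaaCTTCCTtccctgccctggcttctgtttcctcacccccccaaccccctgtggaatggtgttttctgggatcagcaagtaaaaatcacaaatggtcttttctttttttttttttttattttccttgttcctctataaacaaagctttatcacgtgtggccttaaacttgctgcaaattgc
The GC content of the windows was 58.3% for Cldn5, 65.3% for Slc2a1 and 60.3% for Mfsd2a, above the median of 52.7% over all promoters, and 42.0% for Slco1c1, below it. The single TCF/LEF match in the Mfsd2a window begins 115 bases before the start, and the single ETS match in the Slco1c1 window begins 128 bases before it. RefSeq promoters were matched for 8 of the 10 members. An ETS core lay in 3 of these 8 (Abcb1a, Flt1 and Slco1c1) and in 46.5% of all 32851 promoters. A TCF/LEF core lay in 2 of the 8 (Mfsd2a and Abcb1a) and in 16.0% of all promoters. A SOX core (ACAATG) lay in 0 of the 8 and in 12.6% of all promoters. The ETS, TCF/LEF and SOX letters do not overlap one another in the windows printed. The RefSeq start of Abcb1a lies 92986 bases before the start of the gene in the annotation used for its counts, so its window is not shown.

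The libraries held between 61724000 and 91782802 counts. Here and below, the values of 3 embryos are given in the order of replicates 1, 2 and 3. Bahd1 itself had 2, 10 and 6 counts in the knockouts and 1971, 3102 and 3470 in the wild types, a log2 fold change of -8.40 ± 0.61 (SE, edgeR quasi-likelihood test, adjusted p = 0.0462). One library stood apart from the rest. In Bahd1-KO replicate 3, nuclear protein-coding genes took 49.4% of the counts against 92.3% to 95.6% in the other 5. The gene Gm42418 took 22.6% of its counts and the mitochondrial rRNA genes mt-Rnr1 and mt-Rnr2 took 22.1%. In the other 5 these shares were 0.12% to 0.39% and 0.10% to 0.28%. Some of its marker levels also went against its tissue label. Dcx, which marks young neurons, stood at 33.0 CPM there against 1865 to 3713 CPM elsewhere, and Sftpc, a surfactant gene of the lung epithelium, stood at 828 CPM against 0 to 2.66 CPM. Not all neuron genes were low in that library. Of 8 listed, 5 were lowest there and 1, Snap25, was highest, at 910 CPM against 154 to 285 CPM elsewhere. Syt1, at 386 CPM, lay within the range of 268 to 468 CPM in the others. CPM denotes counts per 1000000 counts, scaled between embryos by trimmed mean of M-values (TMM) factors. Comparisons between genotypes are therefore given with and without this library. Replicates were separate embryos.

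In the wild-type brain the members were ordered by CPM per kilobase of exon, the scale on which genes of different length can be compared. Slc2a1, the glucose transporter GLUT1 of the barrier, and Cldn5, the main claudin of its tight junctions, led with levels of 19.0 ± 5.14 and 17.4 ± 7.80 CPM per kilobase (mean ± SD, n = 3). Cdh5, the cadherin of endothelial adherens junctions, followed at 10.2 ± 2.03. Mfsd2a, a lipid transporter that also holds down vesicle transport across the cell, stood at 9.09 ± 2.83 and Kdr, the main signalling receptor for VEGF, at 8.63 ± 1.09. Slco1c1, a carrier of thyroid hormone, stood at 7.37 ± 1.54 CPM per kilobase and Pecam1, an adhesion molecule of endothelial cell contacts, at 5.52 ± 0.80. Tek, the angiopoietin receptor, had 4.36 ± 0.16, Flt1, a second VEGF receptor that also exists as a soluble decoy, 3.42 ± 0.79, and Abcb1a, the efflux pump P-glycoprotein, 2.21 ± 0.38 CPM per kilobase. The ranges of the 3 embryos overlapped for every pair of neighbours in this order except Pecam1 with Tek and Tek with Flt1, so that the order of the leading 7 genes was not resolved step by step. Every member was well counted, with the fewest reads at 111 (Mfsd2a in Bahd1-KO replicate 3).

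None of the 10 members passed the test between genotypes. Over all embryos, 7 had a higher and 3 a lower fitted level in the knockouts. Their median log2 fold change was 0.33 against 0.060 over all 24739 genes tested, with adjusted p from 0.696 to 0.955 (edgeR). Across all genes 1 was called, Bahd1, or 0.00404% of those tested, and 4.67% had an unadjusted p under 0.05, against 0 of the members. Without Bahd1-KO replicate 3, only 3 members were higher and 7 lower, with a median of -0.12 against -0.0079 over 23334 genes and adjusted p from 0.981 to 0.995. In that comparison 4 genes or 0.0171% were called and 1.48% had an unadjusted p under 0.05, again 0 of them members. The genotypes' values did not overlap for 0 of 10 members over all embryos, against 6.71% of all genes, and for 1 of 10 without Bahd1-KO replicate 3, against 10.7% of all genes. The member was Slco1c1.

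**Figure D1:**
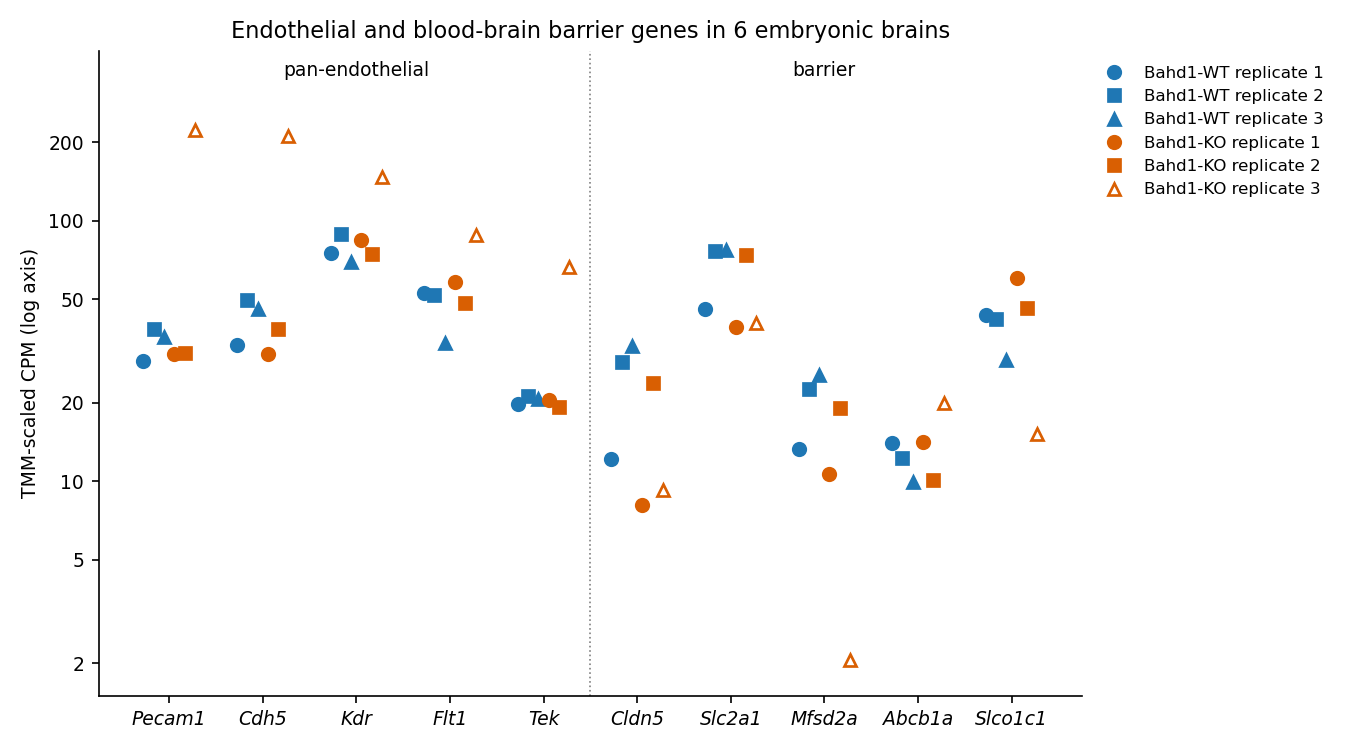
TMM-scaled CPM on a log axis for the 10 members, 1 point per embryo, with Bahd1-WT in blue, Bahd1-KO in orange and Bahd1-KO replicate 3 as an open triangle. The 5 pan-endothelial genes on the left were highest in Bahd1-KO replicate 3, while Mfsd2a stood there at 2.06 CPM and Slco1c1 at 15.2 CPM, each the lowest of the 6.

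The junction genes of the endothelium were far higher in that embryo than in the rest. Pecam1 stood at 30.7, 30.9 and 223 CPM in the knockouts, and at 28.8, 38.5 and 35.8 CPM in the wild types. Cdh5 stood at 30.9, 38.3 and 212 CPM in the knockouts and at 33.4, 49.8 and 45.8 CPM in the wild types. For both genes replicates 1 and 2 of Bahd1-KO lay within or below the wild-type range, and the third embryo lay far above it, at 6.47 and 4.93 times the wild-type mean. The log2 fold change of Pecam1 was 1.46 ± 0.78 (SE, adjusted p = 0.696 by edgeR) with all embryos and -0.17 ± 0.22 (adjusted p = 0.981) without the third, and that of Cdh5 was 1.12 ± 0.73 and -0.32 ± 0.25, with the same adjusted p. The sign of both thus rested on a single library.

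The growth factor receptors were also highest in that embryo with TMM scaling, by smaller ratios to the wild-type mean (1.88 for Kdr, 1.91 for Flt1 and 3.23 for Tek). As a plain share of total counts Flt1 was not highest there, at 60.3 per 1000000 against 62.0 in Bahd1-KO replicate 1. Kdr stood at 84.3, 74.4 and 147 CPM in the knockouts, and at 75.4, 88.8 and 69.6 CPM in the wild types. Flt1 stood at 58.4, 48.1 and 88.3 CPM in the knockouts and at 52.9, 51.7 and 33.8 CPM in the wild types. Only the third Bahd1-KO embryo exceeded the wild-type range of Kdr, whereas for Flt1 the first did so as well. Tek stood at 20.5, 19.3 and 66.4 CPM in the knockouts and at 19.7, 21.3 and 20.7 CPM in the wild types. Apart from the 1 high embryo, Tek had nearly the same level in every brain, the highest of the other 5 being 1.10 times the lowest, a ratio smaller than that of all but 1.01% of the 14825 genes with a mean of at least 1 CPM (median ratio 1.60). Without Bahd1-KO replicate 3 the log2 fold changes were 0.011 for Kdr (95% interval -0.45 to 0.48), 0.19 for Flt1 (-0.39 to 0.78) and -0.062 for Tek (-0.55 to 0.42).

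The barrier genes did not share the high levels of Pecam1 and Cdh5 in that embryo. Mfsd2a stood at 10.7, 19.0 and 2.06 CPM in the knockouts, and at 13.3, 22.5 and 25.5 CPM in the wild types. Slco1c1 stood at 60.5, 46.2 and 15.2 CPM in the knockouts and at 43.6, 42.0 and 29.1 CPM in the wild types. In the third Bahd1-KO embryo both were the lowest of the 6, with Mfsd2a 9.94-fold and Slco1c1 2.51-fold below the wild-type mean. Cldn5 stood at 8.09, 23.9 and 9.25 CPM in the knockouts and at 12.2, 28.8 and 33.1 CPM in the wild types. Slc2a1 stood at 39.2, 73.8 and 40.4 CPM in the knockouts and at 45.7, 76.3 and 77.5 CPM in the wild types. For Cldn5 and Slc2a1 the first and the third Bahd1-KO embryo were alike and lay below the wild-type range, and the second lay within it. Abcb1a stood at 14.1, 10.1 and 19.9 CPM in the knockouts and at 14.1, 12.3 and 9.96 CPM in the wild types, with overlapping groups.

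Among these 5 genes the fitted log2 fold changes were -0.84 ± 0.55 for Cldn5, -0.38 ± 0.35 for Slc2a1, -0.95 ± 0.71 for Mfsd2a, 0.28 ± 0.34 for Abcb1a and 0.09 ± 0.49 for Slco1c1 (SE, adjusted p from 0.696 to 0.955 by edgeR). Without Bahd1-KO replicate 3 they were -0.62 ± 0.55, -0.24 ± 0.35, -0.46 ± 0.37, -0.014 ± 0.27 and 0.46 ± 0.25, in the same order. Slco1c1 was then higher in both Bahd1-KO embryos than in every Bahd1-WT embryo, with an unadjusted p of 0.102 and an adjusted p of 0.981 (edgeR). With all embryos but 1, its fold change turned negative without Bahd1-KO replicate 1 (-0.31), Bahd1-KO replicate 2 (-0.044) or Bahd1-WT replicate 3 (-0.083). Without Bahd1-KO replicate 2, which leaves replicates 1 and 3, the fold changes of Cldn5, Slc2a1 and Mfsd2a were larger, at -1.55, -0.78 and -1.72. Their adjusted p were 0.235, 0.263 and 0.249 (edgeR). The unadjusted p was 0.0186 for Cldn5 and, in the opposite direction, 0.0374 for Pecam1 (log2 fold change 1.85). In that fit 4878 of 24149 genes had an unadjusted p under 0.05, among them these 2 members.

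**Figure D2:**
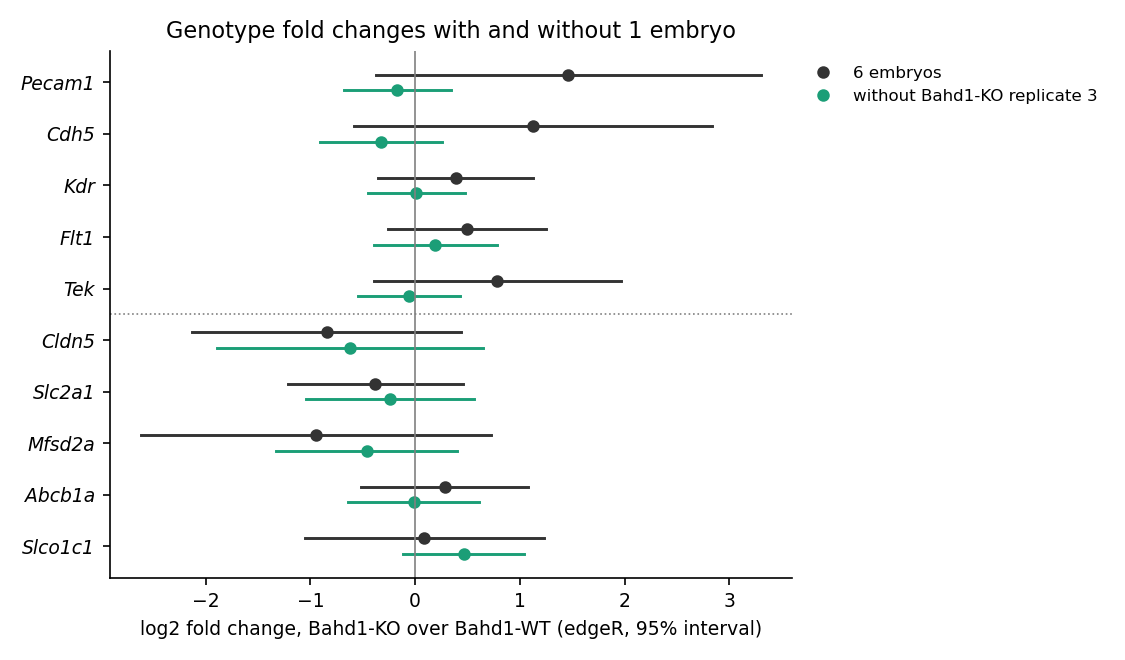
Log2 fold change of each member, Bahd1-KO over Bahd1-WT, with its 95% interval from edgeR, over 6 embryos in black and without Bahd1-KO replicate 3 in green. All 20 intervals include 0, and those of Pecam1, Cdh5 and Tek narrow and shift towards 0 without that embryo.

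Ratios of counts within an embryo do not depend on how libraries are scaled. Those of Mfsd2a, Slco1c1, Slc2a1 and Cldn5 to Cdh5 or Pecam1 showed the same split. The count of Mfsd2a per count of Cdh5 was 0.347, 0.497 and 0.00971 in the knockouts, and 0.398, 0.451 and 0.558 in the wild types. The count of Slco1c1 per count of Pecam1 was 1.97, 1.49 and 0.0684 in the knockouts and 1.51, 1.09 and 0.811 in the wild types. The lowest of the other 5 embryos was 35.7 times Bahd1-KO replicate 3 for the first ratio and 11.9 times for the second. For Slc2a1 per Pecam1 it was 7.02 times and for Cldn5 per Cdh5 6.01 times. No such ratio was taken for Abcb1a. With TMM scaling its level in that embryo was 1.64 times the wild-type mean, against 1.88 for Kdr and 1.91 for Flt1. Ratios among pan-endothelial genes moved less. Pecam1 per Cdh5 ran from 0.772 to 0.996 in the 5 embryos and was 1.05 in the sixth, Kdr per Flt1 was 1.66 there, inside the range of 1.43 to 2.06, and Tek per Kdr was 0.453 against 0.239 to 0.297. Pecam1 per Kdr was 1.52 there against 0.364 to 0.515, so that the junction gene was high relative to the VEGF receptor as well. The mean log2 level of the 5 barrier genes minus that of the 5 pan-endothelial genes was -1.004, -0.47 and -3.45 in the knockouts, and -0.81, -0.57 and -0.41 in the wild types. The genotype means differed by -1.05 with all embryos (Bahd1-KO SD 1.59, Bahd1-WT SD 0.20, n = 3 each) and by -0.14 without the third Bahd1-KO embryo, less than the SD of 0.20 among wild-type embryos. The difference was -1.37 without Bahd1-KO replicate 1 and -1.63 without Bahd1-KO replicate 2.

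**Figure D3:**
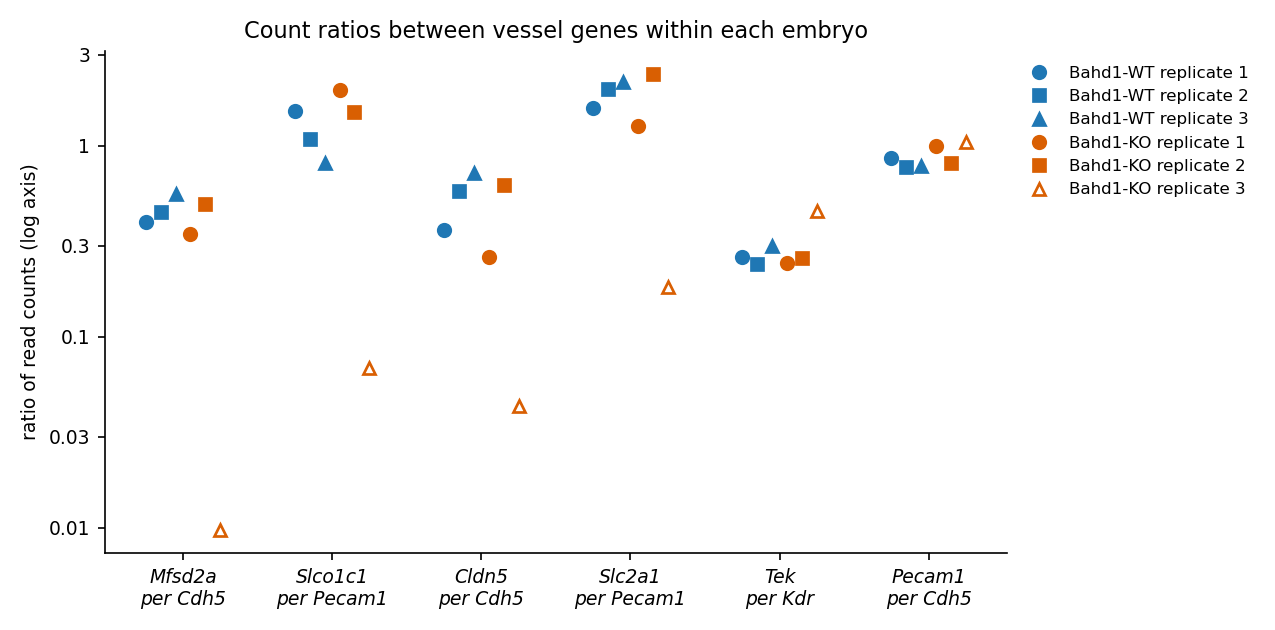
Ratios of read counts between pairs of vessel genes within each embryo, on a log axis, 1 point per embryo. Bahd1-KO replicate 3 (open triangle) lies far below the other 5 in the 4 ratios of a barrier gene to Cdh5 or Pecam1, at 0.00971 for Mfsd2a per Cdh5, and close to them for Pecam1 per Cdh5.

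How far single members stood out in that embryo depended on the scaling. With TMM factors, 6 members were highest there (Pecam1, Cdh5, Kdr, Flt1, Tek and Abcb1a), against 31.3% of all genes at 1 CPM or more, and 2 were lowest (Mfsd2a and Slco1c1), against 45.5%. As a plain share of each embryo's total counts, 4 were highest (Pecam1, Cdh5, Kdr and Tek) and 4 lowest (Cldn5, Slc2a1, Mfsd2a and Slco1c1). Pecam1, Cdh5, Kdr and Tek were thus highest, and Mfsd2a and Slco1c1 lowest, on both scales.

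Other vessel genes were read from lists chosen by function, with earlier results of these data known. Of 20 other endothelial genes, 16 were higher and 4 lower in the knockouts (median log2 fold change 0.60, against 0.060 over all genes), and 0 were called. The split was 6 higher and 14 lower, with a median of -0.18 against -0.0079, without Bahd1-KO replicate 3, the embryo in which 17 of the 20 had their highest level. Emcn, a sialomucin of venous and capillary endothelium, stood at 13.7, 10.8 and 127 CPM in the knockouts, and at 9.57 to 11.6 CPM in the wild types. Cd34, a sialomucin of endothelium and blood progenitors, stood at 41.4, 32.2 and 244 CPM against 31.4 to 32.4 CPM, and Clec14a, an endothelial lectin-like receptor, at 16.1, 13.9 and 99.7 CPM against 12.3 to 12.8 CPM. Ptprb, the endothelial phosphatase that acts on TEK and VE-cadherin, stood at 26.9, 22.0 and 127 CPM against 18.7 to 28.5 CPM. Emcn and Clec14a were named for the largest fold changes of the list, which that embryo sets, and Cd34 and Ptprb for their level. Eng, Nos3, Rasip1 and Sox18, named after their values were seen, did not stand far apart there, with 21.6, 4.17, 8.93 and 3.84 CPM against highest levels of 27.4, 7.37, 15.3 and 3.52 CPM in the other 5.

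Of 20 other barrier junction and transport genes, 12 were higher and 8 lower both with all embryos (median 0.38) and without Bahd1-KO replicate 3 (median 0.047), and 0 were called. Tjp1, the junction scaffold ZO-1, which epithelia also express, stood at 168, 127 and 483 CPM in the knockouts against 113 to 157 CPM in the wild types. Slco1a4, an organic anion transporter of brain capillaries, stood at 4.76, 4.07 and 14.0 CPM against 2.44 to 4.42 CPM, so that this transporter was high where Slco1c1 was low. Marveld2, the tricellular junction protein tricellulin, stood at 1.83, 2.75 and 8.06 CPM against 1.95 to 2.39 CPM. Spock2, an extracellular proteoglycan that neural cells express as well, stood at 197, 337 and 190 CPM against 304 to 387 CPM. In that embryo 11 of the 20 had their highest and 7 their lowest level.

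Of 20 ligands and receptors of vessel growth, 12 were higher and 8 lower (median 0.22), and 9 and 11 without Bahd1-KO replicate 3 (median -0.005), with 0 called. Fzd4 and Reck, both parts of the receptor complexes through which WNT ligands act on brain endothelium, stood at 14.0, 12.3 and 81.7 CPM and at 11.3, 10.7 and 42.9 CPM in the knockouts, against 9.09 to 13.2 CPM and 9.82 to 11.2 CPM in the wild types. Nrp1, a co-receptor for VEGF and semaphorins, stood at 106, 90.0 and 108 CPM against 89.7 to 109 CPM, with no embryo apart. Nrp2, its paralog, stood at 256, 216 and 101 CPM against 210 to 259 CPM. Both are also expressed by neurons. In Bahd1-KO replicate 3, 12 of the 20 had their highest and 5 their lowest level. The WNT ligands Wnt7a and Wnt7b, named after their values were seen, were lowest there, at 4.71 and 10.6 CPM. The other 5 embryos held 13.8 to 25.2 CPM and 28.3 to 61.4 CPM. Ndp and Apcdd1, named likewise, were also lowest there, at 1.76 and 8.14 CPM against 5.31 to 6.40 CPM and 46.1 to 81.6 CPM.

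Mural cells surround the endothelium. Of 12 pericyte and smooth muscle genes, 6 were higher and 6 lower (median 0.14), and 3 and 9 without Bahd1-KO replicate 3 (median -0.25), with 0 called. The pericyte genes Rgs5 and Abcc9 stood at 236, 162 and 195 CPM and at 41.5, 30.3 and 53.8 CPM in the knockouts, against 140 to 199 CPM and 30.0 to 36.0 CPM in the wild types. The smooth muscle genes Acta2 and Myh11 stood at 3.91, 6.63 and 129 CPM and at 2.12, 2.34 and 90.5 CPM, against 4.50 to 9.73 CPM and 1.96 to 3.36 CPM. In Bahd1-KO replicate 3, 7 of the 12 genes had their highest level, among them Abcc9, Acta2 and Myh11 but not Rgs5.

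Markers of vessels and tissues outside the brain moved in the same embryo. Of 13 genes of vessels without a barrier (among them fenestrated, lymphatic, sinusoidal and lung endothelium), 11 were higher and 2 lower (median 1.19), and 8 and 5 without Bahd1-KO replicate 3 (median 0.058), with 0 called. Foxf1, a factor of lung and gut mesenchyme and lung endothelium, stood at 1.07, 0.91 and 71.0 CPM in the knockouts against 0.86 to 1.16 CPM in the wild types, and Stab2, a scavenger receptor of sinusoidal endothelium, at 0.17, 0.24 and 8.49 CPM against 0.23 to 0.34 CPM. Ednrb, an endothelin receptor also found on glia, stood at 137, 137 and 266 CPM against 109 to 167 CPM, and Prox1, a lymphatic factor that neural progenitors and neurons also express, at 113, 83.4 and 32.5 CPM against 68.5 to 96.1 CPM.

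The summed level of 8 lung epithelium genes was 23.8, 27.4 and 1911 CPM in the knockouts, and 13.7 to 22.8 CPM in the wild types, and all 8 were highest in the third Bahd1-KO embryo. Without it all 8 had a higher fitted level in Bahd1-KO (median 3.00, 5 with an unadjusted p under 0.05, 0 called), but for the secreted products this came from replicate 2 alone. Sftpc had 225 counts in Bahd1-KO replicate 2 against 2 in replicate 1 and 0 to 11 in the wild types. Scgb1a1, a secretory gene of the airway named after its values were seen, had 511 counts in Bahd1-KO replicate 2 against 4 in replicate 1 and 13 to 15 in the wild types. Relative to the mean of the other 5 embryos the list's median log2 difference was 0.40 in Bahd1-KO replicate 2, -2.38 in Bahd1-KO replicate 1 and -2.31 to -2.18 in the wild types. The summed level of 8 skeletal muscle genes was 4.30, 7.25 and 90.5 CPM in the knockouts against 7.37 to 14.4 CPM in the wild types, with 8 of 8 highest in Bahd1-KO replicate 3. The sum of 8 meningeal and connective tissue genes was 404, 460 and 2278 CPM against 384 to 473 CPM, with 7 of 8 highest in that embryo. The sum of 8 neuron genes was 9601, 8154 and 2319 CPM against 7782 to 9781 CPM, with 5 of 8 lowest and 1 of 8 highest in that embryo, and the sum of 8 progenitor and radial glia genes was 1576, 1443 and 1535 CPM against 1248 to 1578 CPM, with 5 of 8 lowest and 3 of 8 highest. Sums of 8 red blood cell genes were 160, 593 and 422 CPM against 132 to 501 CPM, of 8 microglia genes 74.1, 82.8 and 109 CPM against 79.8 to 91.7 CPM, and of 8 choroid plexus genes, a tissue that also expresses Slco1c1, 311, 797 and 148 CPM against 370 to 756 CPM. Relative to the mean of the other 5 embryos, Bahd1-KO replicate 3 had a median log2 difference of 1.71 over the 5 pan-endothelial members, 1.63 over the 20 other endothelial genes, 2.11 over the genes of vessels without a barrier, 8.87 over lung epithelium genes, -1.003 over the 5 barrier members and -2.74 over neuron genes, against -0.24 over all genes at 1 CPM or more. The part of these tissues in the members' values was not tested.

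**Figure D4:**
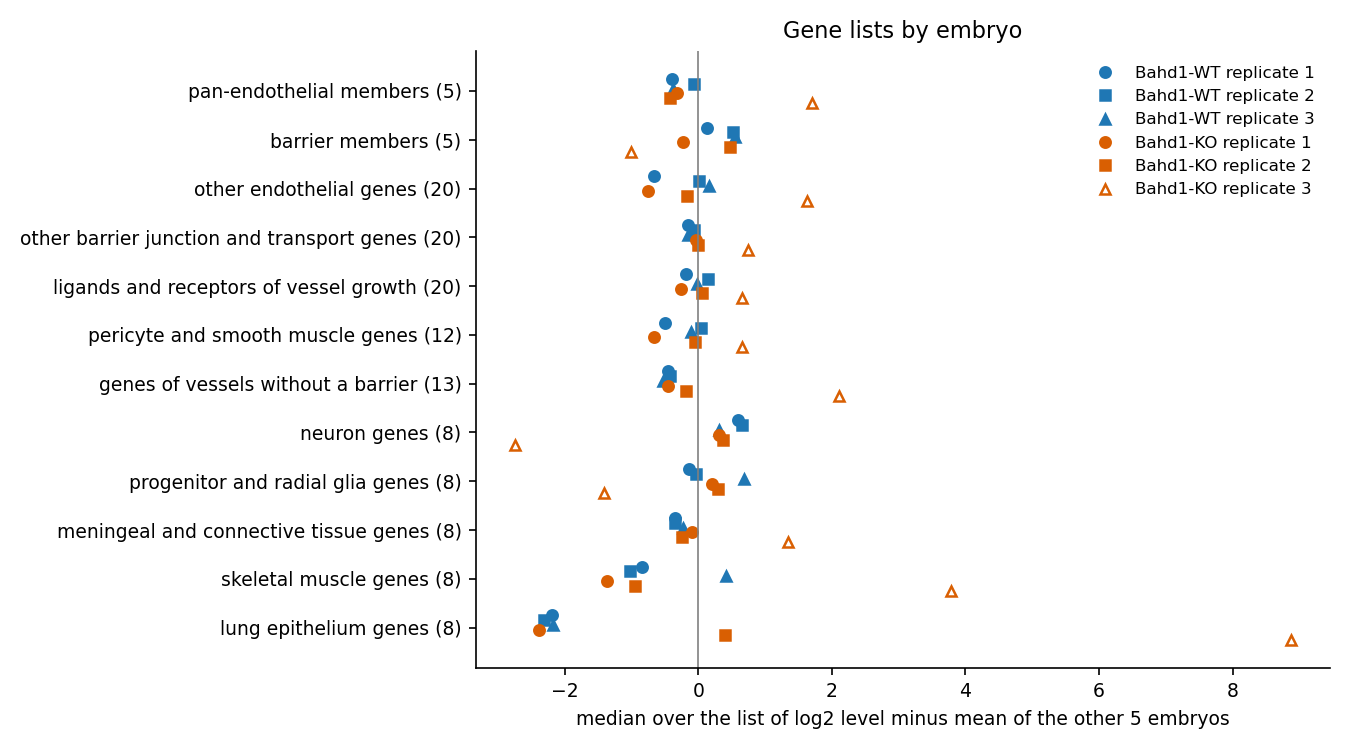
Median over each gene list of the log2 level in 1 embryo minus the mean of the other 5, with the number of listed genes in parentheses. Bahd1-KO replicate 3 (open triangle) lies to the right for pan-endothelial members (1.71), vessels without a barrier (2.11), muscle and lung, and to the left for barrier members (-1.003) and neuron genes (-2.74).

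A second pattern ran through both genotypes and divided the barrier genes. With Bahd1-KO replicate 3 set aside, Cldn5, Slc2a1 and Mfsd2a were lower in replicate 1 than in the other embryos of its genotype, in Bahd1-WT and in Bahd1-KO. In Bahd1-WT, replicate 1 differed from the mean of replicates 2 and 3 by -1.33 in Cldn5, -0.75 in Slc2a1 and -0.84 in Mfsd2a on the log2 scale, and in Bahd1-KO it differed from replicate 2 by -1.55, -0.91 and -0.83. In the opposite direction, Slco1c1 differed by 0.32 and 0.39, Abcb1a by 0.34 and 0.48 and Flt1 by 0.34 and 0.28. Of the other pan-endothelial genes, Cdh5 differed by -0.51 and -0.31 and Pecam1 by -0.36 and -0.010. These differences followed the base composition of the transcripts, which was 60.5% GC for Cldn5, 54.2% for Mfsd2a and 54.0% for Slc2a1 but 45.2% for Abcb1a and 43.1% for Slco1c1. Flt1, at 50.5%, lay above the median of genes with its composition in both genotypes. Across 14812 genes, which are not independent replicates, Pearson's r of the difference with GC content was -0.76 in Bahd1-WT and -0.75 in Bahd1-KO, against -0.018 for Bahd1-WT replicate 2 minus replicate 3. Among the 10% of genes richest in GC the median difference was -0.84 in Bahd1-WT and -1.12 in Bahd1-KO, and among the 10% poorest in GC it was 0.53 and 0.46. Cldn5, which belongs to the first of these sets, exceeded both medians in size.

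**Figure D5:**
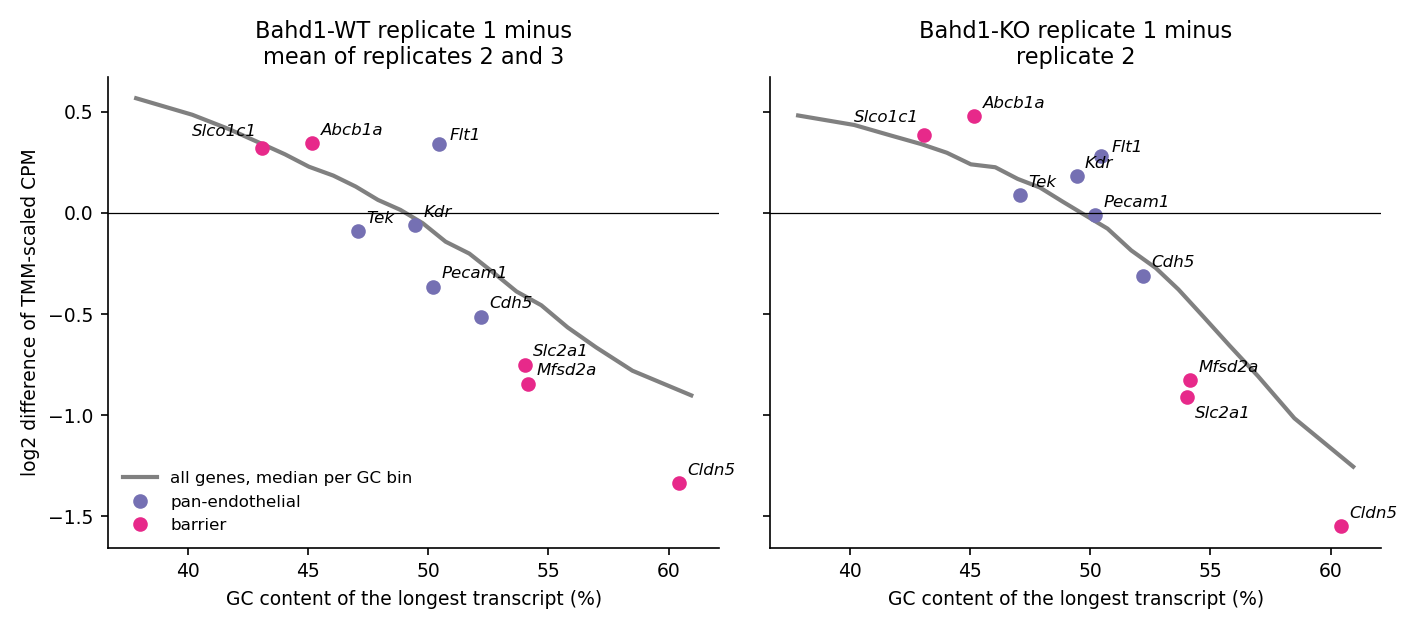
Log2 difference of replicate 1 from its group against the GC content of each member's longest transcript, in Bahd1-WT (left) and Bahd1-KO (right, from replicate 2 only), with barrier genes in pink, pan-endothelial genes in purple and the median of all genes in 20 GC bins as a grey line. Members lie lower at higher GC content, as the grey line does, from 0.32 and 0.39 for Slco1c1 to -1.33 and -1.55 for Cldn5.

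Correcting the libraries for GC content, an alternative added after the data were seen, reduced this spread. Over the 5 embryos other than Bahd1-KO replicate 3, the SD of the log2 level went from 0.88 to 0.31 for Cldn5, from 0.53 to 0.27 for Mfsd2a, from 0.48 to 0.23 for Slc2a1 and from 0.37 to 0.25 for Slco1c1, against 0.27 to 0.17 for the median gene. It rose from 0.30 to 0.35 for Flt1 and from 0.052 to 0.11 for Tek. After correction Slco1c1 stood at log2 levels of 5.74 and 5.70 in Bahd1-KO replicates 1 and 2, and at 5.41, 5.67 and 5.16 in Bahd1-WT, so that the groups still did not overlap but lay closer. In the corrected fit without Bahd1-KO replicate 3, 0 members and 6 genes in all were called.

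The genes most like the members' mean log2 level over the 6 embryos were Nfic, Anpep, Mgme1, Piezo1 and Mt2, the 5 with the highest Pearson's r among 14815 candidates. The r was 0.991 for Nfic, 0.987 for Anpep, 0.983 for Mgme1 and 0.982 for both Piezo1 and Mt2, each over 6 embryos of which 1 stood apart. The mean itself was 4.80, 5.02 and 5.32 in the knockouts, and 4.84, 5.21 and 5.05 in the wild types. Piezo1, a mechanosensitive channel of endothelial and other cells, stood at 5.51, 11.9 and 28.3 CPM in the knockouts and at 6.78, 15.5 and 11.5 CPM in the wild types. It was low in replicate 1 of both genotypes and high in Bahd1-KO replicate 3, as the mean of the members was. Its selection by r with that mean fixed this likeness in advance. The mean joins members that moved in opposite directions in Bahd1-KO replicate 3. There the log2 difference from the mean of the other 5 was 2.76 in Pecam1 and -3.01 in Mfsd2a.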

How the data were processed

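RNA-seq measured poly(A) RNA of 6 whole embryonic brains. The deposited values were raw read counts per gene, without normalization; the authors trimmed reads (cutadapt 1.11), aligned them to GRCm38 and counted stranded exon reads with featureCounts 1.4.6-p3. STAR 2.5.0a and TopHat2 are both named for the alignment. Repeated runs were held as 1 column per embryo. Groups came from the sample titles.

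Genes with a count sum of at least 10 were tested by the two-sided quasi-likelihood test of edgeR 4.0.16 (R 4.3.3) scaled with TMM factors, with genotype alone in the model, and p-values were adjusted over all genes by Benjamini and Hochberg (threshold 0.05). Tested on simulated data, the script recovered the seeded changes. The simulation had a fixed spread between embryos and no library that stood apart, so it does not measure power in these embryos. Log2 levels used a pseudocount of 0.1 CPM. Exon length and GC content of the longest transcript came from GENCODE M21. Alternatives covered filters, scaling, DESeq2 1.42.0, limma 3.58.1 voom with quality weights, the replicate block, each embryo left out and, added after seeing the data, a lowess GC correction (span 0.3) and DESeq2 without Bahd1-KO replicate 3. P-values set the difference between genotypes against the spread between these embryos alone, a spread estimated with information shared across genes.

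Members and lists were chosen with earlier results of these data known. Named were Bahd1, the members, in each list the 2 genes with the highest mean CPM and the 2 with the largest fold change, list genes past the threshold (none were), and the 5 genes most like the members' mean. Lists of other tissues are given as counts and sums, apart from Dcx, Snap25 and Sftpc, and from Syt1 and Scgb1a1, which were named after their values were seen. Among vessel genes, Eng, Nos3, Rasip1, Sox18, Wnt7a, Wnt7b, Ndp and Apcdd1 were also named after their values were seen.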

Additional observations from a re-analysis of the deposited data

How the results depend on the processing

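No member was called under any of the 19 alternatives, whose smallest adjusted p for a member was 0.235. Of 273 values recomputed, 226 kept their direction and their side of the threshold. Among the fold changes of single genes 24 turned sign, and the members' median did so as well in the settings given below. Genes called over the whole table numbered 1 with all embryos, 8 with DESeq2, 6 with voom, 0 with the replicate block (517 with an unadjusted p under 0.05), 16 with the block without Bahd1-KO replicate 3, 11 with DESeq2 and 6 with the GC correction without that embryo, and 0 to 4 when 1 embryo was left out, 4 being without Bahd1-KO replicate 3 and 0 without any other (154 to 4878 with an unadjusted p under 0.05). The members' median log2 fold change of 0.33 became -0.038 with voom, and, without Bahd1-KO replicate 3, -0.12 by edgeR and DESeq2, -0.14 with the block and -0.11 with the GC correction. Under voom, Pecam1 turned to -0.10 and Cdh5 to -0.32. Without Bahd1-KO replicate 3, Pecam1 turned to -0.17 by edgeR and DESeq2, -0.13 with the block and -0.11 with the GC correction, Cdh5 to -0.32, -0.33, -0.27 and -0.18, Abcb1a to -0.014, -0.013, -0.15 and -0.13, and Tek to -0.062, -0.063, -0.059 and -0.12 in edgeR, DESeq2, the block and the GC correction. Kdr turned to -0.064 with the block without that embryo. Slco1c1 turned to -0.10 with the block, -0.12 with the GC correction, -0.31 and -0.044 without Bahd1-KO replicate 1 or 2, and -0.083 without Bahd1-WT replicate 3. With 1 embryo left out in turn, Cldn5 ran from -1.55 to -0.57, Slc2a1 from -0.78 to -0.22 and Mfsd2a from -1.72 to -0.46, the low end being without Bahd1-KO replicate 2, and the barrier genes minus the pan-endothelial genes from -1.63 without that embryo to -0.14 without Bahd1-KO replicate 3. Values ran from -0.12 to 0.50 for the members' median, -0.17 to 1.88 for Pecam1, -0.32 to 1.54 for Cdh5, -0.014 to 0.46 for Abcb1a, -0.062 to 1.06 for Tek and -0.31 to 0.46 for Slco1c1, with the low end at Bahd1-KO replicate 3 for all but Slco1c1, for which it gave the high end. Beyond the removal of 1 embryo the cause was not tested. Whether replicate numbers paired the embryos was not settled. The deviations of same-numbered embryos from their group means correlated at 0.12, 0.18 and -0.09, and not every embryo correlated best with its own number. This cannot decide it, because the Bahd1-KO mean includes replicate 3, which stood apart. Without that embryo 2171 genes had an unadjusted p under 0.05 with the block, against 345 without the block (edgeR). The median of all genes was 0.060 with TMM, 0.17 with upper-quartile factors and -0.11 per total counts, and no member turned under these scalings. Bahd1 kept a log2 fold change of -8.97 to -7.94, with adjusted p from 9.29e-50 to 0.685. With 3 embryos a group, the 95% intervals were widest for Pecam1 (-0.37 to 3.30), Cdh5 (-0.58 to 2.83) and Mfsd2a (-2.62 to 0.73), and narrowest for Kdr (-0.35 to 1.13).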
